A study of Mus musculus with 9 samples.

Results

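The mouse mitochondrial genome carries 7 genes for subunits of respiratory complex I: mt-Nd1, mt-Nd2, mt-Nd3, mt-Nd4, mt-Nd4l, mt-Nd5 and mt-Nd6. They were taken by symbol from the 22322 genes of the deposited table, and all 7 were present. No measured value entered this rule, but the set was chosen with earlier results of these data known. Long-term haematopoietic stem cells (LT-HSCs), the most durable blood-forming cells of the marrow, were sorted from the marrow of C57BL/6 mice of 6 to 8 weeks as lineage-negative cells, positive for c-Kit, CD150 and Sca-1 and negative for CD48 and CD135. The 3 groups, each of 3 mice, were wild type (WT), Cxcl10-/- mice lacking the chemokine gene Cxcl10, and Cxcr3-/- mice lacking the receptor gene Cxcr3. Each library was made from 500 to 800 cells of 1 mouse, from polyadenylated RNA amplified as cDNA and sequenced. The labels name no cell type in which either gene was removed, no other allele and no treatment.

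Complex I is the NADH dehydrogenase of the inner mitochondrial membrane, where it passes electrons from NADH to ubiquinone and pumps protons. Its membrane arm is built on the mitochondrially encoded subunits, and its matrix arm and its accessory subunits are encoded in the nucleus. Both strands of the mitochondrial genome are transcribed as long RNAs that are cut, mostly at tRNAs, into single mRNAs. mt-Nd6 is the only mRNA of the light strand, and in human cells it lacks a stable poly(A) tail. LT-HSCs are known for relying largely on glycolysis and for low mitochondrial respiration.

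Some of these genes touch or overlap, which bears on how their reads can be counted. In GENCODE M21 (GRCm38), mt-Nd4l (chromosome M, 9877 to 10173) and mt-Nd4 (10167 to 11544) lie on the plus strand and share 7 bases, and the pair is read from 1 mRNA. Below, each gene is still named as an mRNA of its own, since counts are per gene. mt-Nd5 (11742 to 13565, plus strand) and mt-Nd6 (13552 to 14070, minus strand) share 14 bases at their ends on opposite strands. The sequences at both overlaps are shown because ratios within these pairs are reported below, with the shared bases in capitals, 5′ to 3′ on each gene's own strand.
mt-Nd4l, last 30 bases (chromosome M, 10144 to 10173, +): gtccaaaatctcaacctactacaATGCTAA
mt-Nd4, first 30 bases (chromosome M, 10167 to 10196, +): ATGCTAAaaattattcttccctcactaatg
mt-Nd5, last 30 bases (chromosome M, 13536 to 13565, +): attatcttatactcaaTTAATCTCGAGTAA
mt-Nd6, last 30 bases (chromosome M, 13552 to 13581, −): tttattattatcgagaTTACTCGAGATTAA
The ends of mt-Nd3 and mt-Nd4 are shown because these genes kept more of their level than most in Cxcl10-/- cells. So did mt-Nd6, whose end is shown above and which kept more than mt-Nd4. A link between these ends and the levels was not tested. The capitals mark what the DNA encodes of the stop codon: mt-Nd3 has a whole one, and mt-Nd4 has only its first base, the rest being made by the poly(A) tail.
mt-Nd3, last 18 bases (chromosome M, 9789 to 9806, +): ttagaatgaacagagTAA
mt-Nd4, last 18 bases (chromosome M, 11527 to 11544, +): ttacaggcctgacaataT

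The other members were mt-Nd1 (2751 to 3707), mt-Nd2 (3914 to 4951) and mt-Nd3 (9459 to 9806), all on the plus strand. Each gene is annotated as 1 exon with no intron, and the lengths run from 297 bases for mt-Nd4l to 1824 for mt-Nd5. The base composition of mt-Nd6 stood apart, with 28.1% G and 22.2% A, against 8.0 to 11.6% G and 30 to 36.9% A in the other 6. Nuclear copies of at least 90% identity were found in the same annotation for 6 of the 7. The closest were Gm28438 for mt-Nd3 (chromosome 1, 99.7% over 345 bases), Gm10222 for mt-Nd4l (chromosome 1, 100% over 294 bases) and Gm28439 for mt-Nd4 (chromosome 1, 100% over 876 bases). mt-Nd1 had none. None of these copies is among the genes with deposited counts. How the counting treated reads that match both a copy and a member is unknown, and levels of the other 6 are uncertain to that extent. Whether counting used strand is not given, so reads of mt-Nd6 cannot be told from reads of the opposite strand across it.

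Total counts ran from 12098498 to 17904629 per library. Cxcl10 had 0 counts in all 3 Cxcl10-/- libraries, where a count of 0 allows at most 0.189 to 0.221 CPM (counts scaled to the library total). In WT libraries it had 36, 84 and 3 counts, and in Cxcr3-/- libraries 112, 553 and 176. Cxcr3 had 0 counts in all but 1 library (8 counts in WT replicate 3), so its level does not check the Cxcr3-/- label. The 10 LT-HSC markers (among them Procr, Slamf1 and Hlf) summed to 593 to 713 FPKM over the 9 libraries, and none was at 0 throughout a group. FPKM is the deposited level per gene length and library total, and it serves to compare genes with each other.

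The Cxcl10-/- libraries held more RNA of marker genes of other cell types and of immediate-early genes than the others. By the edgeR test described below, 3.52% of all genes passed as higher against WT and 3.70% as lower. Those higher included 6 of 12 endothelial, 4 of 5 tested stromal and bone and 1 of 5 tested erythroid genes (Hba-a1). None of 3 tested neutrophil and 7 of 7 tested immediate-early genes passed as higher. Of the 10 LT-HSC markers Kit passed as lower. Genes were tested if they averaged at least 1 FPKM over the 9 libraries. Markers high only in Cxcl10-/- can enter through that group, so the filter partly sets these counts. The 12 endothelial markers summed to 58.2 to 78.5 FPKM in WT, 536 to 714 in Cxcl10-/- and 40.5 to 75.6 in Cxcr3-/-, with none at 0 throughout any group. The 10 stromal and bone markers summed to 2.13 to 6.85, 82.7 to 346 and 1.84 to 3.32 FPKM. Adipoq and Col1a1 were at 0 in all WT libraries, and Bglap was at 0 in all libraries of every group. The 8 immediate-early genes, such as Fos and Egr1, summed to 37.4 to 49.2, 298 to 552 and 32.3 to 42.9 FPKM. The 7 erythroid markers summed to 48.7 to 92.1, 84.1 to 626 and 48.8 to 56.9 FPKM. The 6 neutrophil markers summed to 9.69 to 21.8, 14.5 to 179 and 4.5 to 22.1 FPKM, with Elane and Camp at 0 in all Cxcl10-/- libraries. These values stand beside every comparison with Cxcl10-/- that follows, and their part in it was not tested. In bulk libraries, fewer cells of a type and less RNA per cell cannot be told apart.

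In WT cells the 7 genes differed widely in FPKM. mt-Nd1 was highest at 5675 ± 216 FPKM (SD, n = 3), followed by mt-Nd4 at 3915 ± 231 and mt-Nd2 at 2984 ± 543. mt-Nd6 at 1949.7 and mt-Nd5 at 1885 FPKM had overlapping ranges and could not be ordered. mt-Nd4l at 839 and mt-Nd3 at 649.6 FPKM were lowest, which made the highest mean 8.74 times the lowest. The order was not the order along the genome: mt-Nd3, mt-Nd4l and mt-Nd4 are neighbours, and the last was far above the first pair.

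In Cxcl10-/- cells the order shifted. mt-Nd1 (2084 ± 399 FPKM) and mt-Nd4 (1923 ± 195) overlapped at the top, then mt-Nd6 (1081) and mt-Nd2 (1056), which also overlapped. mt-Nd3, lowest in WT, was next at 644.7 FPKM, above mt-Nd5 at 368 and mt-Nd4l at 171. In Cxcr3-/- cells mt-Nd1 led at 6043 ± 351 FPKM, mt-Nd4, mt-Nd2 and mt-Nd6 followed with overlapping neighbours, then mt-Nd5 and mt-Nd3, which overlapped, and mt-Nd4l at 518.

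**Figure D1:**
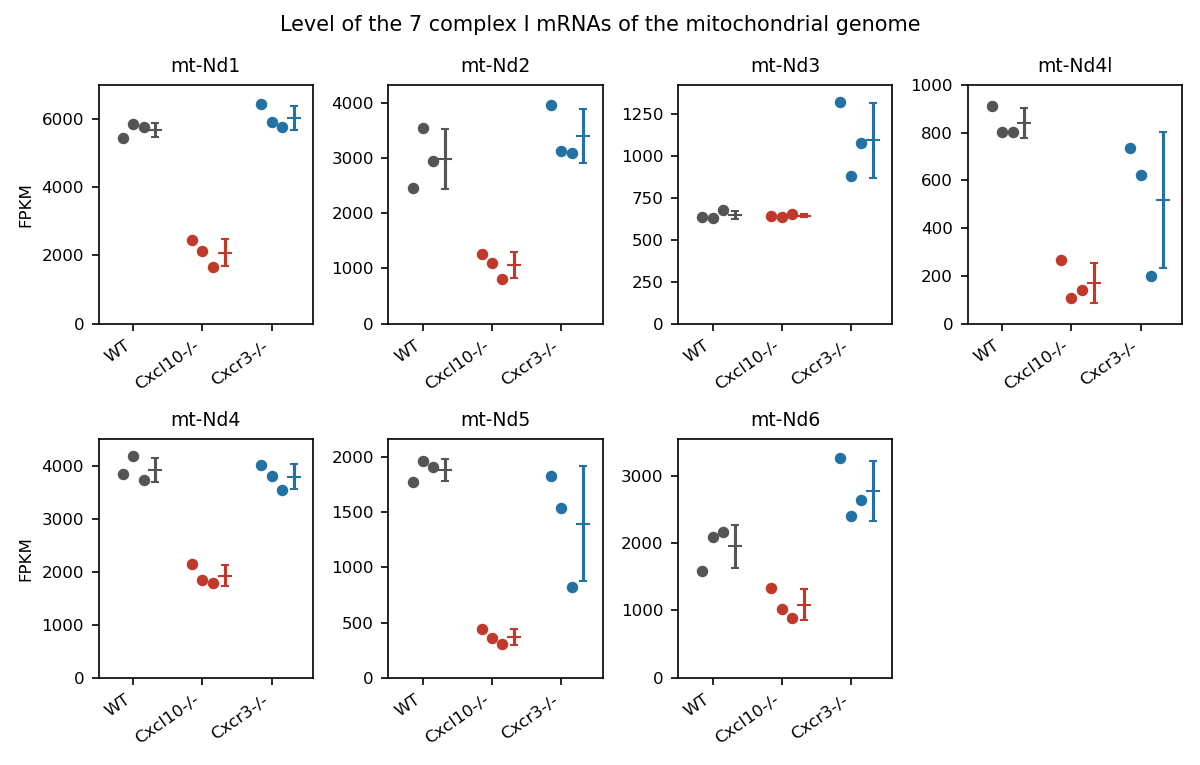
Level of each mRNA in FPKM (linear axes from 0, a scale of its own per panel) in the 9 libraries; points are mice, bars to their right the group mean ± SD (n = 3). All Cxcl10-/- points lie below all WT points except for mt-Nd3, whose WT and Cxcl10-/- points lie between 632 and 678 FPKM.

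Cxcl10-/- against WT. Of the 7 complex I mRNAs, 6 were lower in Cxcl10-/- LT-HSCs, by 1.92-fold for mt-Nd6 to 5.46-fold for mt-Nd5, and mt-Nd3 did not pass the test. Tests were edgeR quasi-likelihood fits over 10866 genes, of which 785 (7.22%) passed at an adjusted p under 0.05, 402 (3.70%) of them as lower. Higher calls made up 48.8% of the 785, and 65.8% with limma and 63.6% with library size alone as the scaling. The 785 became 229, 193 and 253 without WT replicate 1, 2 or 3, while 6 members passed in each of these fits. The median of the members' log2 fold changes was −1.54, against 0.06 over all genes tested. In FPKM the groups did not overlap for 6 of 7 members, against 30.3% of all genes in either direction and 11.9% as lower.

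The antiporter-like subunits, which form the proton-pumping part of the membrane arm, are mt-Nd2, mt-Nd4 and mt-Nd5. mt-Nd2 was at 2459, 3544 and 2950.0 FPKM in the WT libraries and at 1267, 1094 and 807 in Cxcl10-/-. The groups stood apart, with a log2 fold change of −1.59 ± 0.16 (SE, n = 3 per group, edgeR adjusted p = 0.000375). mt-Nd4 was at 3837, 4175 and 3732 FPKM in WT and at 2145, 1843 and 1781 in Cxcl10-/-, again without overlap. Its log2 fold change was −1.12 ± 0.09 (edgeR adjusted p = 5.54e-05), a 2.17-fold lower level. mt-Nd5, at the far end of the arm, was at 1776, 1967 and 1911 FPKM in WT and at 442, 361 and 301 in Cxcl10-/-. Every Cxcl10-/- library was far below every WT library, with a log2 fold change of −2.45 ± 0.23 (edgeR adjusted p = 0.000199).

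mt-Nd1, which helps to form the ubiquinone site where the arms meet, was at 5431, 5840.4 and 5754 FPKM in WT and at 2457, 2132 and 1663 in Cxcl10-/-. Its log2 fold change of −1.54 ± 0.11 had the smallest adjusted p of the members (edgeR, 1.58e-05), and the groups did not overlap. mt-Nd1 and mt-Nd2, which lie next to each other in the genome with tRNAs between them, fell by nearly the same amount.

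The small subunits behaved unequally. mt-Nd3, which carries a loop at the ubiquinone site, was at 639, 632 and 678 FPKM in WT and at 644.5, 638 and 652 in Cxcl10-/-, fully overlapping. Its log2 fold change was −0.10 ± 0.16 with a 95% interval of −0.44 to 0.25 (edgeR adjusted p = 0.753). The interval lies above those of the other 6 members. mt-Nd4l, the smallest of the 7, was at 912, 804 and 801.5 FPKM in WT and at 267, 106 and 141 in Cxcl10-/-. That is a log2 fold change of −2.39 ± 0.43 (edgeR adjusted p = 0.00861), with no overlap but a wide spread among the Cxcl10-/- mice. mt-Nd6 was at 1589.9, 2093 and 2166 FPKM in WT and at 1336, 1023 and 885.5 in Cxcl10-/-. The groups stood apart by a smaller step, a log2 fold change of −0.94 ± 0.16 (edgeR adjusted p = 0.00746).

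The 6 other mitochondrial mRNAs (mt-Cytb of complex III, mt-Co1, mt-Co2 and mt-Co3 of complex IV, mt-Atp6 and mt-Atp8 of ATP synthase) were all lower too. Their log2 fold changes ran from −3.41 to −1.43 with a median of −2.0. Of the 13 mitochondrial protein-coding genes, mt-Nd3 was thus the only one that did not pass as lower. mt-Nd4l and mt-Nd4 are read from 1 mRNA, so their unlike log2 fold changes are not those of separate mRNAs. mt-Atp8 (7766 to 7969) and mt-Atp6 (7927 to 8607) overlap as well.

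Cxcr3-/- against WT. No member passed the test, and neither did any of the 10866 genes with edgeR (0.0%), while 681 genes (6.27%) and 3 members (mt-Nd3, mt-Nd5 and mt-Nd6) had an unadjusted p under 0.05. Without Cxcr3-/- replicate 2, 6 genes passed, none of them a member. In FPKM 3 of 7 members did not overlap with WT (mt-Nd3 and mt-Nd6 above it, mt-Nd4l below it), against 19.8% of all genes, 12.1% as higher. DESeq2 gave an adjusted p to 2229 of the 10866 genes and passed 78 of these (3.50%), and mt-Nd3 was among them. That share is therefore over fewer genes than the edgeR share. Both comparisons with WT use the same 3 WT libraries.

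mt-Nd3 was at 1325, 879.9 and 1078 FPKM in Cxcr3-/-, all above the 3 WT libraries. The log2 fold change was 0.69 ± 0.16 with an adjusted p of 0.552 in edgeR, and 0.67 ± 0.17 with an adjusted p of 0.00933 in DESeq2. mt-Nd6 was at 3265, 2409 and 2637 FPKM, also above all WT libraries, with a log2 fold change of 0.45 ± 0.16 (edgeR adjusted p = 0.716). These values do not pass in edgeR, and their intervals are 0.34 to 1.03 for mt-Nd3 and 0.09 to 0.80 for mt-Nd6.

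mt-Nd1 at 6440.5, 5911 and 5776 FPKM overlapped WT, with a log2 fold change of 0.03 (95% interval −0.21 to 0.27). mt-Nd2 at 3962, 3124 and 3091 FPKM and mt-Nd4 at 4014, 3809 and 3547 FPKM overlapped WT as well. Their log2 fold changes were 0.12 (−0.22 to 0.46) and −0.11 (−0.31 to 0.09).

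mt-Nd5 at 1832, 1536 and 819 FPKM and mt-Nd4l at 736, 621 and 198 FPKM spread most among the Cxcr3-/- mice. In both genes the low value was that of replicate 3, while that library was within the range of the others for mt-Nd3 and mt-Nd6 and close below the lowest for mt-Nd1, mt-Nd2 and mt-Nd4. The log2 fold changes against WT were −0.50 ± 0.22 for mt-Nd5 and −0.77 ± 0.41 for mt-Nd4l (edgeR adjusted p = 0.772 and 0.848). Without Cxcr3-/- replicate 3 they were −0.24 and −0.39.

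Cxcr3-/- against Cxcl10-/-. All 7 members were higher in Cxcr3-/- than in Cxcl10-/- cells, with log2 fold changes from 0.78 to 1.95 and a median of 1.57, against −0.05 over all genes. Of all genes 1142 (10.5%) passed, 554 of them (5.10%) as higher, and 423 and 517 passed without Cxcr3-/- replicate 1 and 3. FPKM ranges did not overlap for 6 of 7 members, against 29.1% of all genes, 12.7% as higher. The libraries are those of the comparisons with WT, so the values are not independent of them. The largest steps were mt-Nd5 at 1.95 ± 0.23 (edgeR adjusted p = 0.000981) and mt-Nd2 at 1.71 ± 0.16 (0.000215), and mt-Nd1 stood at 1.57 ± 0.11 (1.29e-05). mt-Nd6 at 1.38 ± 0.17 and mt-Nd4 at 1.01 ± 0.09 had edgeR adjusted p-values of 0.00107 and 0.000198. mt-Nd3 had the smallest step, 0.78 ± 0.16 (0.0117). mt-Nd4l at 1.62 ± 0.42 (edgeR adjusted p = 0.0312) was the only member whose FPKM ranges overlapped, through Cxcr3-/- replicate 3. Its call was lost when any WT library, Cxcl10-/- replicate 2 or 3, or Cxcr3-/- replicate 1 or 2 was left out, with log2 fold changes of 1.31 to 1.62 and edgeR adjusted p from 0.0502 to 0.133.

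**Figure D2:**
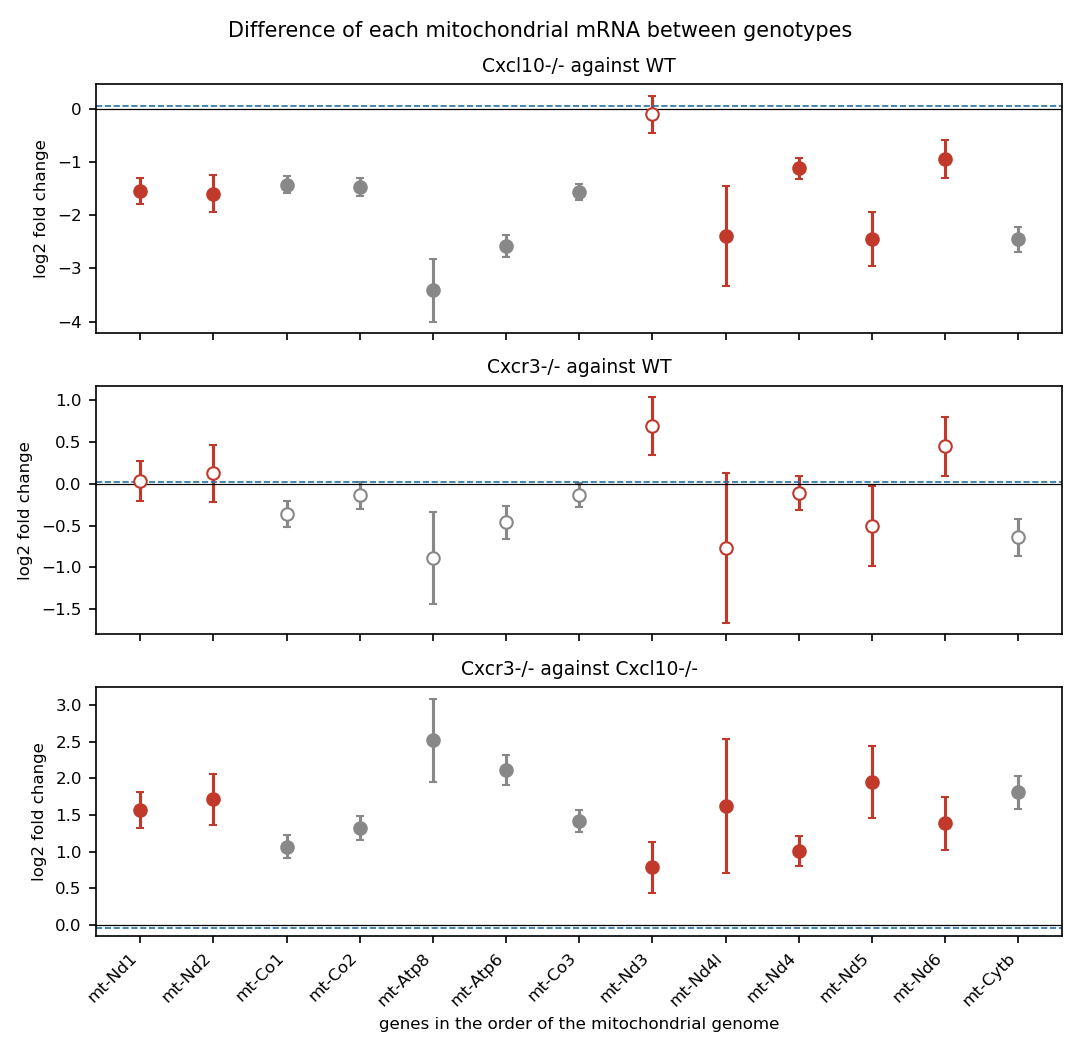
Log2 fold change with its 95% interval (edgeR) for the 13 mitochondrial mRNAs in genome order, 1 panel per comparison; red marks the 7 complex I mRNAs, grey the 6 others, filled points passed at an adjusted p under 0.05, and the dashed line is the median of all genes tested. In Cxcl10-/- against WT, mt-Nd3 at −0.10 is the only open point, between mt-Co3 at −1.56 and mt-Nd4l at −2.39.

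The members' summed share of all counts was 1.76, 2.02 and 1.88% in WT, 0.843, 0.716 and 0.616% in Cxcl10-/- and 2.15, 1.87 and 1.69% in Cxcr3-/-. All 13 mitochondrial mRNAs took 12.6 to 13.1% in WT, 3.57 to 4.13% in Cxcl10-/- and 10.2 to 11.2% in Cxcr3-/-. Within the mitochondrial mRNA counts the members therefore took 13.5, 15.5 and 14.9% in WT, 20.4, 18.01 and 17.3% in Cxcl10-/- and 19.8, 16.7 and 16.5% in Cxcr3-/-. Both knockouts lay above WT in this share, and they overlapped each other.

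The share of each member was compared by exact two-sided permutation tests, 21 in all, where 3 against 3 libraries cannot go below p = 0.1. mt-Nd3 took 0.170, 0.169 and 0.187% of mitochondrial mRNA counts in WT, 0.543, 0.559 and 0.635% in Cxcl10-/- and 0.424, 0.274 and 0.366% in Cxcr3-/-. The 3 groups did not overlap (exact p = 0.1 for each pair). mt-Nd4 took 4.04, 4.41 and 4.08% in WT, 7.16, 6.39 and 6.87% in Cxcl10-/- and 5.08, 4.69 and 4.77% in Cxcr3-/-, also without overlap. mt-Nd6 took 0.631, 0.833 and 0.891% in WT and 1.12 to 1.68% in the 6 knockout libraries. mt-Nd5 took 2.48, 2.75 and 2.76% in WT and 1.95, 1.66 and 1.54% in Cxcl10-/-, so its share was lower there. Against WT the shares stood apart for 5 of 7 members in Cxcl10-/-, 4 of them higher, and for 5 of 7 in Cxcr3-/-, all higher. Of all genes, 74.4% (73.7% as higher) and 29.7% (27.4% as higher) stood apart when counted per mitochondrial mRNA count. Between the knockouts, 2 of 7 members and 66.0% of all genes stood apart.

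**Figure D3:**
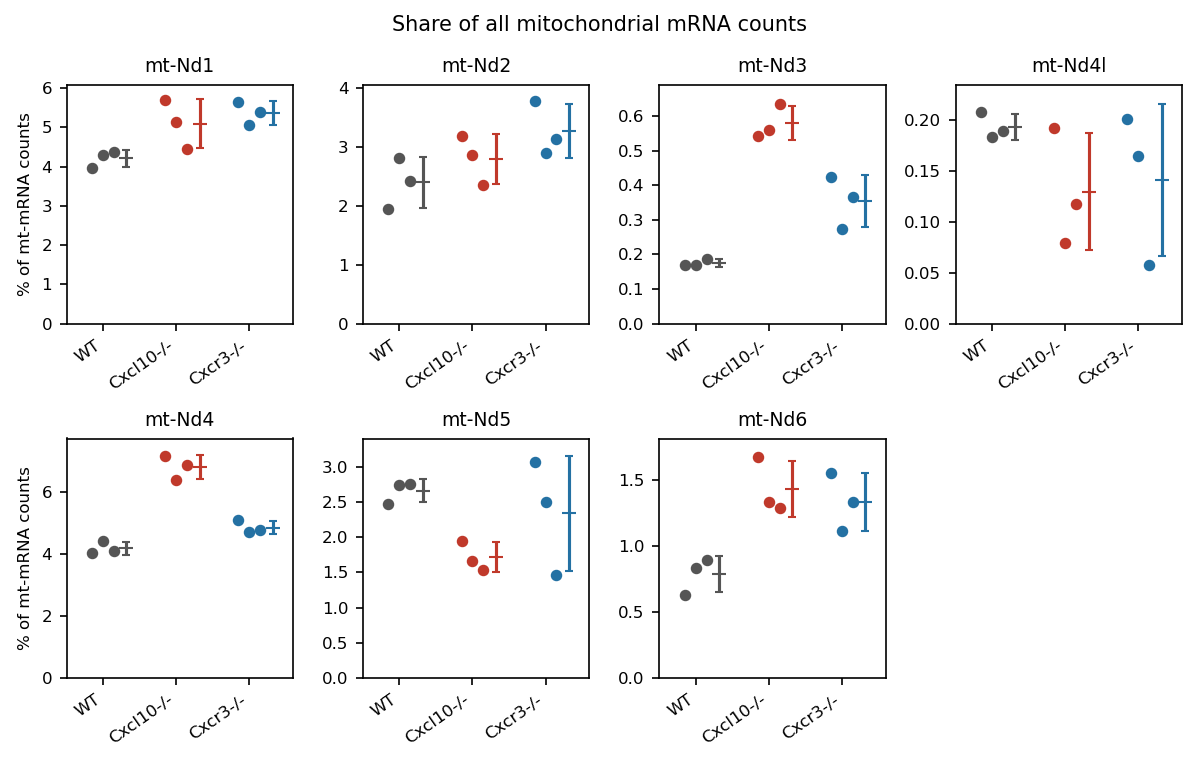
Share of each complex I mRNA in the counts of all 13 mitochondrial mRNAs, in percent (linear axes from 0, a scale of its own per panel), by library; points are mice, bars the mean ± SD (n = 3). mt-Nd3 and mt-Nd4 have the highest shares in Cxcl10-/-, and mt-Nd5 has a lower share there (1.54 to 1.95%) than in WT (2.48 to 2.76%).

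Scaling to the summed counts of the 6 other mitochondrial mRNAs, a choice made after the values were seen, put this in the gene-wide test. In Cxcl10-/- against WT, mt-Nd3 was higher on this scale by a log2 fold change of 1.79 ± 0.19 (edgeR adjusted p = 2.92e-06). mt-Nd6 at 0.94 ± 0.18 (0.000470), mt-Nd4 at 0.77 ± 0.10 (1.86e-05) and mt-Nd1 at 0.35 ± 0.12 (0.0162) were higher as well, and mt-Nd5 at −0.56 ± 0.22 (0.0308) was lower. mt-Nd2 at 0.29 and mt-Nd4l at −0.50 did not pass (edgeR adjusted p = 0.131 and 0.261). On this scale 79.6% of all genes passed, 79.1% as higher and 0.479% as lower, the total used for scaling being itself lower in Cxcl10-/-. Neither a member nor any other gene passed in Cxcr3-/- against WT (0.0%), with mt-Nd3 at 1.07 ± 0.18 (edgeR adjusted p = 0.0744) and mt-Nd6 at 0.82 ± 0.18 (0.0832). In Cxcr3-/- against Cxcl10-/-, mt-Nd3 at −0.72 ± 0.18 (edgeR adjusted p = 0.00370) and mt-Nd4 at −0.50 ± 0.10 (0.000734) were lower on this scale, where 69.4% of all genes passed, 68.8% as lower.

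Several of these relative calls rested on single libraries. In Cxcl10-/- against WT, that of mt-Nd1 was lost without WT replicate 1 or Cxcl10-/- replicate 1 (0.30 and 0.24, edgeR adjusted p = 0.0726 and 0.0868). That of mt-Nd5 was lost without WT replicate 2 or 3 or Cxcl10-/- replicate 2 or 3 (−0.53 to −0.48, edgeR adjusted p from 0.0760 to 0.0859), and mt-Nd2 passed without Cxcl10-/- replicate 3 (0.41, 0.0398). Without Cxcr3-/- replicate 2, mt-Nd3 and mt-Nd6 passed as higher in Cxcr3-/- than in WT (1.24 and 0.94, edgeR adjusted p = 0.0134 and 0.0439). Without Cxcr3-/- replicate 3, mt-Nd5 passed as higher in Cxcr3-/- than in Cxcl10-/- (0.69, edgeR adjusted p = 0.00307).

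Ratios of FPKM between neighbours, also chosen after the values were seen, do not depend on the library total. The ratio of mt-Nd6 to mt-Nd5, which face each other on opposite strands, was 0.895, 1.06 and 1.13 in WT, 3.02, 2.83 and 2.94 in Cxcl10-/- and 1.78, 1.57 and 3.22 in Cxcr3-/-. Both knockouts lay above WT (exact p = 0.1 each), and the highest Cxcr3-/- value was that of replicate 3. The ratio of mt-Nd4l to mt-Nd4, which share 1 mRNA, was 0.238, 0.193 and 0.215 in WT, 0.124, 0.0573 and 0.0792 in Cxcl10-/- and 0.183, 0.163 and 0.0558 in Cxcr3-/-. Both knockouts lay below WT (exact p = 0.1 each), with Cxcr3-/- replicate 3 again at the extreme. Since these genes are read from 1 mRNA and share bases, the ratio also carries how reads were divided along it.

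The ratio of mt-Nd3 to its upstream neighbour mt-Co3 was 0.0359 ± 0.0012 in WT, 0.0988 ± 0.0071 in Cxcl10-/- and 0.0635 ± 0.0110 in Cxcr3-/- (SD, n = 3), with no overlap among the groups. The ratio of mt-Nd3 to its downstream neighbour mt-Nd4l was 0.777 ± 0.073 in WT, 4.36 ± 1.83 in Cxcl10-/- and 2.89 ± 2.22 in Cxcr3-/-, and both knockouts lay above WT. By contrast, the ratio of mt-Nd2 to mt-Nd1 was 0.524 ± 0.078, 0.505 ± 0.017 and 0.560 ± 0.048, and both knockouts overlapped WT. With 15 such comparisons and a smallest p of 0.1, none can pass a threshold of 0.05.

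**Figure D4:**
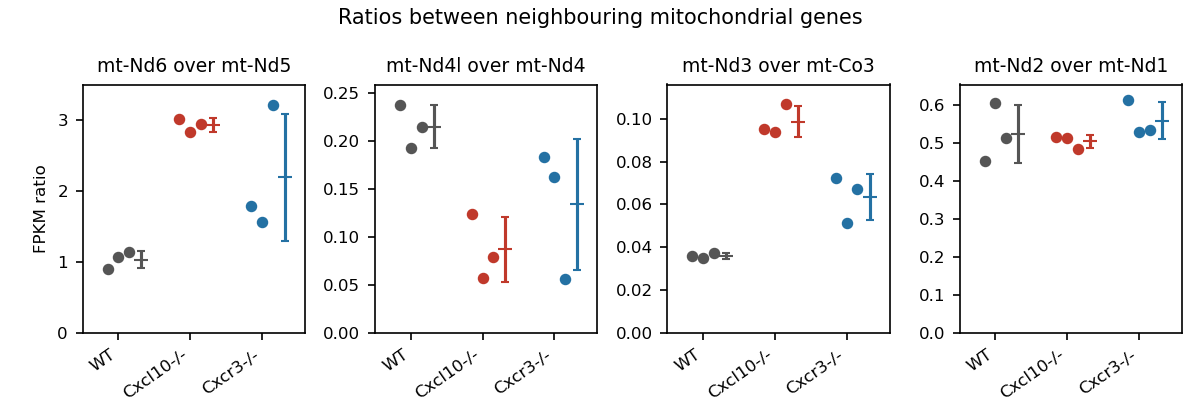
FPKM ratios of 4 neighbouring gene pairs by library (linear axes from 0); points are mice, bars the mean ± SD (n = 3). The mt-Nd6 to mt-Nd5 and mt-Nd3 to mt-Co3 ratios of all knockout libraries lie above WT, the mt-Nd4l to mt-Nd4 ratio lies below it, and the mt-Nd2 to mt-Nd1 ratio overlaps it.

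None of the 36 nuclear subunits of complex I passed as lower in Cxcl10-/- against WT. Of all genes 3.70% did, so a count of none is near that share. Of the 7 core subunits of the matrix arm, 3 rose in Cxcl10-/- against WT and none fell, with a median log2 fold change of 0.24 against 0.06 over all genes, where 3.52% passed as higher. Among them were Ndufs7 (0.80 ± 0.21, edgeR adjusted p = 0.0421), which holds the last iron-sulfur cluster, and Ndufs3 (0.65 ± 0.17, 0.0440). Ndufs7 stood at 185 ± 7.6 FPKM in WT, 342 ± 44.6 in Cxcl10-/- and 156 ± 35.9 in Cxcr3-/- (SD, n = 3). Among the 29 accessory subunits, 6 rose and none fell, with a median of 0.34. Ndufa8 rose by 1.16 ± 0.22, Ndufb10 by 1.02 ± 0.19, Ndufb7 by 0.93 ± 0.15 and Ndufs6 by 0.81 ± 0.16 (edgeR adjusted p = 0.0115, 0.0100, 0.00593 and 0.0136). None of the 15 assembly factors measured passed in any comparison with edgeR. Of all genes 7.22% passed in Cxcl10-/- against WT, 0.0% in Cxcr3-/- against WT and 10.5% between the knockouts.

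No nuclear subunit passed in Cxcr3-/- against WT. Of the core subunits 3, Ndufs3 and Ndufs7 among them, were lower in Cxcr3-/- than in Cxcl10-/-, and so were 9 accessory subunits, with medians of −0.57 and −0.45, while the 7 mitochondrial members were all higher. Of all genes 5.41% passed as lower in this comparison. Of the 23 genes for mitochondrial transcription and RNA processing, none passed against WT. In Cxcr3-/- against Cxcl10-/-, 1 of the 23 passed as higher and 1 as lower, near the shares of all genes (5.10% and 5.41%). Grsf1, which binds mitochondrial RNA, was higher in Cxcr3-/- by 1.01 ± 0.26 (edgeR adjusted p = 0.0284). Hsd17b10, a part of mitochondrial RNase P, was lower, with −1.02 ± 0.24 (0.0190).

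**Figure D5:**
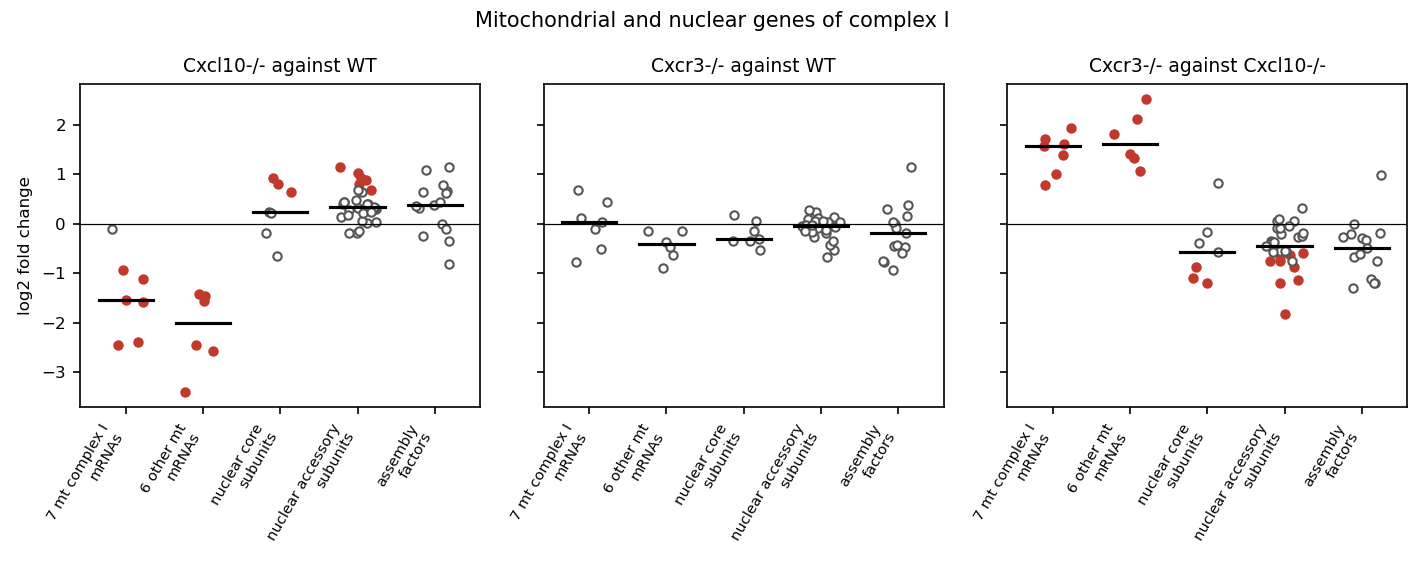
Log2 fold changes (edgeR) of the 7 mitochondrial complex I mRNAs, the 6 other mitochondrial mRNAs, and the nuclear core, accessory and assembly genes of complex I, 1 panel per comparison; red points passed at an adjusted p under 0.05 and bars are list medians. In Cxcl10-/- against WT the medians are −1.54 for the mitochondrial members and 0.24 and 0.34 for the nuclear core and accessory subunits.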

How the data were processed

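Bulk RNA-seq of sorted LT-HSCs was analysed from 9 libraries, 3 per genotype, each from 1 mouse. The authors deposited FPKM and counts per gene, per the file headers. The deposited counts hold fractions (87.3% are whole, tolerance 1e-06) and were treated as estimated counts made by the authors, with no normalization. The deposited FPKM of the 13 mitochondrial mRNAs equal these counts per annotated length and library total. fastp, HISAT2, StringTie and RSEM are named in the submitters' processing notes with the version, genome build and strand setting not given in the sources used here. GENCODE M21, which holds 22267 of the gene IDs, gave positions and sequences.

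Expected counts were rounded, and genes averaging 1 FPKM or more (10866) were fitted over all 9 libraries with edgeR 4.0.16 (TMM, quasi-likelihood, R 4.3.3) and Benjamini-Hochberg adjustment. SEs are the size of the log2 fold change divided by the square root of F. Alternatives used DESeq2 1.42.0 and limma 3.58.1 on log2(FPKM + 1). Nuclear copies were sought with blastn 2.17.0. The 95% intervals of log2 fold changes come from the edgeR fit and include the spread between mice, while the limit given for a count of 0 covers counting error only. The members and gene lists were chosen with earlier results of these data known. Of each list, up to 4 genes that passed are named, by smallest p. Values of some genes of these lists are not reported here.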

Additional observations from a re-analysis of the deposited data

How the results depend on the processing

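Under the alternatives run, 6 members passed in Cxcl10-/- against WT, none in Cxcr3-/- against WT and 6 or 7 between the knockouts, except that DESeq2 passed 1 in Cxcr3-/- against WT. The number of genes passing moved more. In Cxcl10-/- against WT (785) it was 1498 with DESeq2, 1183 with no expression filter, 414 with only the libraries of the pair, and 193 to 1003 when 1 library was left out (229, 193 and 253 without WT replicates 1, 2 and 3). The share of higher calls was 48.8%, and 65.8% with limma and 63.6% with library size alone. In Cxcr3-/- against WT (0) it was 78 with DESeq2, 38 with no filter and 0 to 6 leaving out 1 library, 6 being without Cxcr3-/- replicate 2. In Cxcr3-/- against Cxcl10-/- (1142) it was 1814 with DESeq2, 423 with only the pair's libraries and 423 to 1407 leaving out 1 library (423 and 517 without Cxcr3-/- replicates 1 and 3), and higher calls were 48.5%, or 37.5% with limma. Replicate numbers were not taken to pair the mice. Deviations of same-numbered libraries from their group means had correlations from −0.08 to 0.02, which cannot show how the mice were handled. A replicate block gave 442, 0 and 833 genes and left the members' calls at 6, 0 and 7.

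Relative to the 6 other mitochondrial mRNAs, the members passing were 4 to 5, 0 to 2 and 2 to 3 leaving out 1 library, and 1 in Cxcr3-/- against WT with the replicate block. The direction of mt-Nd1 in Cxcr3-/- against WT turned to −0.0073 with no filter. On the relative scale, leaving out 1 library gave −0.39 to 0.13 for mt-Nd5 in Cxcr3-/- against WT, and between the knockouts −0.26 to 0.0319 for mt-Nd6, −0.26 to 0.53 for mt-Nd4l and −0.039 to 0.17 for mt-Nd1. With FPKM in place of counts, the members' summed share differed by −1.35 percentage points in Cxcl10-/- against WT (−1.16 with counts), and their share of mitochondrial mRNA by 5.40 in the same comparison (3.95 with counts). Between the knockouts the summed share differed by 1.53 (1.18 with counts). The causes were not tested. Precision was lowest for mt-Nd4l, whose SE was 0.41 to 0.43 on the log2 scale, against 0.09 for mt-Nd4.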

Other observations

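Over the 9 libraries the levels of the members (log2 CPM) moved together except for mt-Nd3. The 15 pairs without mt-Nd3 had a Pearson r of 0.683 to 0.989 with a median of 0.933, and the 6 pairs with it 0.207 to 0.767 with a median of 0.519. mt-Nd1 and mt-Nd2 were the closest pair (r = 0.989), and mt-Nd3 and mt-Nd4l, neighbours in the genome, the most distant (r = 0.207). These points share libraries and genotypes, so the values are a description.

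A search covered the 7562 nuclear genes averaging 5 FPKM or more, without predicted genes (Gm and Rik symbols) and rows without a symbol. With so many genes and 9 libraries in 3 groups, high r values are bound to appear, so the values are a description. Those most like the summed members were Trim37 (r = 0.989), H2ac4 (0.985), Stau2 (0.984), Rbl1 (0.984) and Vps35 (0.983). Trim37 stood at 13.1, 5.72 and 12.7 FPKM in WT, Cxcl10-/- and Cxcr3-/-. H2ac4 averaged 15.9, 0.0 and 19.8 FPKM in the same order. It was at the floor in Cxcl10-/-, where the members were not, so the r of H2ac4 is not relied on. Most like mt-Nd3 were Rnf44 (r = 0.974), Ybx3 (0.960), Polr2k (0.941), Hnrnpa2b1 (0.940) and Nucks1 (0.938), and Rnf44 stood at 21.2, 20.5 and 39.3 FPKM. Among the genes most like mt-Nd6 were Cdk17 (r = 0.983), Tnpo1 (0.977), Pdcl (0.9748) and Nono (0.974). Syncrip had the highest r (0.984), but FPKM under that symbol averaged 31.5, 36.7 and 39.6 in WT, Cxcl10-/- and Cxcr3-/-. That level was not lower in Cxcl10-/- as mt-Nd6 was, so the r of Syncrip is not relied on.

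Across the 13 mitochondrial mRNAs the log2 fold change of Cxcl10-/- against WT had a Spearman rho of 0.08 with length, −0.15 with GC content and −0.32 with A content. In Cxcr3-/- against WT the values were 0.05, −0.39 and −0.09. The 13 mRNAs come from the same libraries and share 1 genome.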
